A study of Mus musculus with 24 samples.

Results

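The MHC class II presentation genes described here were 8 genes chosen by name, with earlier results of these data known: H2-Aa, H2-Ab1, H2-Eb1, Cd74, Ciita, H2-DMa, H2-DMb1 and H2-Oa. All 8 were found among the 51138 genes counted, and all 8 passed the filter of at least 10 counts over all samples, which kept 30564 genes. RNA was sequenced from whole constructs taken 2 weeks after subcutaneous implantation in Foxp3-DTR/eGFP mice of both sexes, aged 8 to 9 weeks at the start, in 6 groups of 4 samples. This strain carries the diphtheria toxin receptor and eGFP under the Foxp3 promoter, the gene that marks regulatory T cells (Treg), and every group was implanted in it. The BCP group received 40 mg of biphasic calcium phosphate granules alone. The BCP+MSC group received granules seeded with 800000 bone marrow mesenchymal stromal cells (MSC) of wild-type C57BL/6J mice. For BCP+MSC+RvE1 the MSC had been primed with 10 nM resolvin E1 (RvE1), a lipid mediator made from an omega-3 fatty acid. For BCP+MSC+Treg, sorted, activated Treg of Foxp3-DTR/eGFP mice were added to the seeded granules, in equal number to the MSC. These constructs, with MSC and Treg, were implanted after 36 h of coculture. The (dep)BCP+MSC mice carried BCP+MSC constructs and were given diphtheria toxin at 50 µg/kg to deplete Foxp3-expressing cells, and the (dep)BCP+MSC+RvE1inj mice had the same toxin with local injections of 50 µL of 1 µM RvE1. The other 4 groups had no toxin, so that depletion of Treg and the toxin itself cannot be told apart. The RvE1 injections were given daily, and no vehicle injection is described for (dep)BCP+MSC. RvE1 and repeated local injection therefore cannot be told apart either. Each mouse carried 2 constructs, and the RNA held both seeded and host cells. In such bulk samples fewer cells of a type and less RNA per cell cannot be told apart.

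MHC class II molecules are pairs of an alpha and a beta chain that hold peptides of proteins taken up from outside the cell and show them to CD4 T cells. Dendritic cells, macrophages and B cells make them, and other cells can be brought to do so by interferon-gamma. The invariant chain fills the groove of a new class II molecule until it reaches the endosome, where the DM molecule helps to exchange the remaining fragment for peptides and the DO molecule restrains DM. CIITA, the transactivator, joins the RFX and NF-Y factors that sit on the X and Y boxes of class II promoters.

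Of the 8 genes, 6 stood close together on chromosome 17 of GRCm38. In the positions of the count table, H2-Oa lay at 34092340 to 34095234, H2-DMa at 34135182 to 34139101, H2-DMb1 at 34153072 to 34160230, H2-Ab1 at 34263209 to 34269418, H2-Aa at 34282744 to 34287827 on the minus strand, and H2-Eb1 at 34305877 to 34316199. Ciita lay on chromosome 16 at 10488178 to 10527564. Reads were counted without regard to strand over all exons. Overlaps were looked up in a later release of the gene annotation than the one used for counting. In that release Ciita, H2-DMa and H2-Oa each overlap a gene on the opposite strand (Dexi, Brd2 and BC051537), while Cd74 holds Mir5107 on its own strand. Whether the overlaps hold for the exons counted was not checked. Where they do, reads shared by overlapping genes are uncertain. Reads shared by the near-identical copies H2-DMb1 and H2-DMb2 are uncertain too.

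The promoters are shown because the genes share a regulator whose partners read 2 short motifs. Promoter sequence, the 250 bases before a start site, was taken from RefSeq on GRCm38.p6 for H2-Aa, H2-Eb1, H2-DMa, H2-DMb1 and H2-Oa, with 6 starts in all. It was not read for H2-Ab1, Ciita and Cd74. Capitals mark AGCAAC, the core of the X box, and GATTGG, the core of the Y box, on either strand, so that CCAATC is a Y core read backwards. The H2-Ob gene, which encodes the other chain of DO and is not among the 8, is shown with them.
H2-Eb1 (chr17:34305717-34305841, plus strand): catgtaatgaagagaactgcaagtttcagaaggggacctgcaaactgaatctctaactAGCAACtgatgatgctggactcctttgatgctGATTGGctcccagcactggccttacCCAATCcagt
H2-Oa (chr17:34092229-34092340, plus strand): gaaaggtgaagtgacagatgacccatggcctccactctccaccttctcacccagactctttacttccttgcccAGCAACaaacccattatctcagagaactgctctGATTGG
H2-Aa (chr17:34287849-34287973, minus strand): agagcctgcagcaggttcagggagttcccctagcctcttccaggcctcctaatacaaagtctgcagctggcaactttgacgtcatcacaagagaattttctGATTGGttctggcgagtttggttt
H2-Ob (chr17:34238755-34238879, plus strand): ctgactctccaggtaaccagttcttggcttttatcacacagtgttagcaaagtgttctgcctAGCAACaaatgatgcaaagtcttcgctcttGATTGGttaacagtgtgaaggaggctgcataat

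The Y core was found in 5 of the 6 promoters of the 8 genes, and in 14.6% of all 32851 mouse promoters of the same length. The X core, as the exact letters AGCAAC, was found in 2 of the 6 and in 12.2% of all promoters. X boxes with other letters were not searched for. Both in order, AGCAAC followed within 40 bases by GATTGG on one strand, were found in the promoters of H2-Eb1 and H2-Oa and in 0.201% of all promoters, 66 in number. Counted back from the start site, the cores began at -92 and -60 in H2-Eb1 and at -77 and -44 in H2-Oa. H2-Aa had a Y core at -49 and H2-DMb1 at -62. H2-DMa had 1 at -199 of its second RefSeq start and none at its first, and both of these starts lie upstream of the position in the count table. H2-Ob held the pair at -88 and -58. A match is a description of these letters and not a test of binding, and the lack of a match does not show that a box is absent.

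Cd74, the invariant chain gene on chromosome 18 at 60803848 to 60812646, was by far the most abundant of the 8 genes. Its median over the 24 samples was 2419 CPM (counts relative to the TMM-scaled library size), or 1716 CPM per kilobase of exon, and it ranked 32 among all genes by median CPM. On the same length scale the median of the classical beta chains was 662 CPM per kilobase for H2-Eb1 and 548 for H2-Ab1, and that of the alpha chain H2-Aa was 533. The DM chains were lower, with medians of 79.0 CPM per kilobase for H2-DMa and 70.1 for H2-DMb1. Ciita followed at 3.22 and H2-Oa, a chain of DO, at 1.18 CPM per kilobase. Together the 8 genes took from 0.0808% to 0.78% of all counts of a sample.

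**Figure D1:**
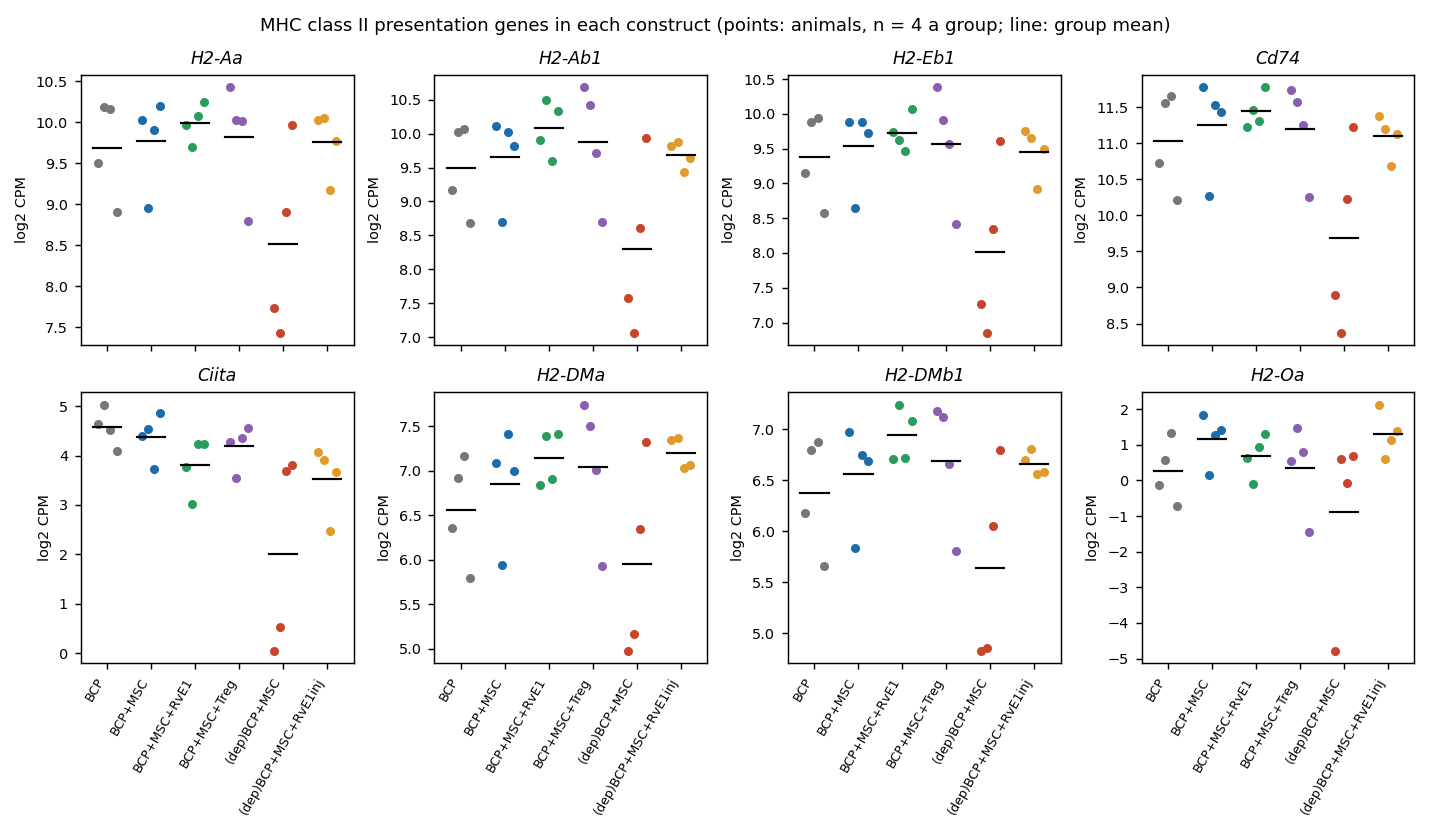
Level of each of the 8 genes in every sample, as log2 CPM, by group; points are samples and lines are group means of log2 CPM (n = 4). Replicates 1 and 2 of (dep)BCP+MSC lie below the other 22 samples for 7 of the genes, all but H2-Oa, where replicate 1 with 0 counts is drawn at the prior count.

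Depth differed widely between samples. Total counts ran from 8482701 in (dep)BCP+MSC replicate 1 to 144417743 in BCP+MSC+RvE1 replicate 4, a 17.0-fold range, and 3 counts, taken as the floor, came to 0.354 CPM (before TMM scaling) at the lowest depth and 0.0208 CPM at the highest. Among the 8 genes this floor limits Ciita and H2-Oa, since Cd74 had 4782 counts in the shallowest sample where Ciita had 10 and H2-Oa had 0. Some shallow samples were also low in class II: BCP replicate 4, BCP+MSC+Treg replicate 4 and (dep)BCP+MSC+RvE1inj replicate 3, with 10567666 to 14111255 counts. Each had the lowest summed CPM of the 8 genes in its group. BCP+MSC+RvE1 replicate 2, with 18077487 counts, did not. With log2 library size as a covariate, the median log2 fold change of the 8 genes in (dep)BCP+MSC against BCP+MSC was -0.99, and -1.11 without it. Foxp3, the target of the depletion design, was at 0.629 to 1.19 CPM in BCP+MSC, 0.378 to 1.70 CPM in (dep)BCP+MSC and 0.299 to 1.07 CPM in (dep)BCP+MSC+RvE1inj. The toxin groups therefore overlapped the untreated one in Foxp3 RNA of the construct at the time of collection. These levels rest on 17 to 83 counts in (dep)BCP+MSC and 4 to 60 in (dep)BCP+MSC+RvE1inj. The paper checked depletion by flow cytometry in lymph nodes and spleen and reports a reduction of Treg there. The count columns of (dep)BCP+MSC carry the numbers 1, 2, 4 and 5 although its samples are called 1 to 4, so the last 2 are named here by their column.

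Replicates 1 and 2 of (dep)BCP+MSC stood apart and bear on every result below. The summed level of the 8 genes was 820 CPM in replicate 2 and 1096 CPM in replicate 1 of this group, against 2557 CPM in column 4 and 5434 CPM in column 5. In the other 20 samples it ran from 2565 CPM in a BCP+MSC+Treg sample to 8157 CPM in another of the same group. The undepleted groups were thus themselves spread, with 2579 to 6700 CPM in BCP, 2684 to 6898 CPM in BCP+MSC and 5338 to 7412 CPM in BCP+MSC+RvE1.

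The levels of 6 of the genes moved together from sample to sample. Among the 3 classical chains, Cd74 and the DM chains, all 15 pairs had Pearson correlations of log2 CPM of 0.92 to 0.99 over the 24 samples, which share groups and include the low pair. After the group means were taken out the correlations were 0.92 to 0.98, and without (dep)BCP+MSC replicates 1 and 2 they were 0.83 to 0.97. The 7 pairs with Ciita were looser, with 0.51 to 0.75, and rested on those 2 samples, since the range without them was -0.29 to 0.21. H2-Oa had 0.51 to 0.72 in its 7 pairs and -0.10 to 0.71 without the 2 samples.

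**Figure D2:**
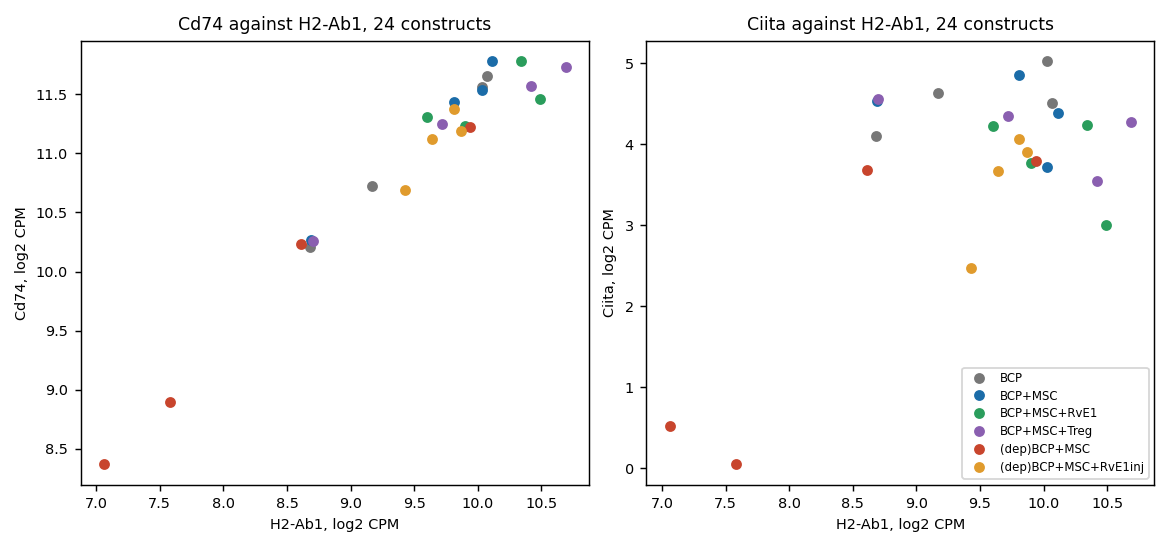
Log2 CPM of Cd74 (left) and Ciita (right) against log2 CPM of H2-Ab1 in the 24 samples, coloured by group. Cd74 lies along a line with H2-Ab1, whereas Ciita is spread among the samples of high H2-Ab1 and is lowest in (dep)BCP+MSC replicates 1 and 2.

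Within a sample the invariant chain kept a narrow ratio to the beta chain. The log2 ratio of Cd74 to H2-Ab1 was 1.43 ± 0.20 (SD over 24 samples) with a range of 0.96 to 1.71, and in the 2 low (dep)BCP+MSC samples it was 1.32 and 1.30. The log2 ratio of Ciita to H2-Ab1 ran more widely, from -7.53 in (dep)BCP+MSC replicate 1 to -4.14 in BCP+MSC replicate 2. The log2 ratio of H2-DMb1 to H2-DMa stayed between -0.66 and -0.10, and that of H2-Eb1 to H2-Aa between -0.61 and -0.02. The ratios of H2-Oa to H2-DMa, Cd74 to H2-Ab1 and H2-Ab1 to Ptprc (the pan-leukocyte gene CD45), were tested in 9 comparisons each with an exact two-sided permutation test. None of these 27 tests passed after Benjamini-Hochberg adjustment, the lowest adjusted p being 0.331.

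The first comparisons ask whether seeding of MSC, priming by RvE1 or coculture with Treg went with a different level of the class II genes. No member passed the test in any of the 6 comparisons among the 4 groups without toxin, and the groups overlapped for all 8 genes. Cd74 was at 1684, 3025, 3213 and 1185 CPM in BCP and at 3516, 1234, 2961 and 2766 CPM in BCP+MSC. Constructs with RvE1-primed MSC had 2400, 2808, 2531 and 3506 CPM, and those with MSC and Treg 3402, 3049, 2439 and 1224 CPM. The lowest sample was at 1185 to 1234 CPM in 3 of these groups and at 2400 CPM in BCP+MSC+RvE1.

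H2-Ab1, the beta chain of I-A, had means of 777 ± 335 CPM in BCP, 867 ± 316 in BCP+MSC, 1117 ± 304 with RvE1 priming and 1071 ± 551 with Treg coculture (SD, n = 4 each). Its log2 fold change against BCP was 0.52 ± 0.49 (SE) in BCP+MSC+RvE1, the largest rise in value among the 8 in that comparison, with an edgeR adjusted p of 0.588. Ciita had 24.3 ± 6.38 CPM in BCP, 21.5 ± 6.46 in BCP+MSC, 14.8 ± 5.13 with RvE1 priming and 18.7 ± 5.01 with Treg coculture (SD, n = 4 each). Its difference between BCP+MSC+RvE1 and BCP was -0.72 ± 0.56 on the log2 scale, with an edgeR adjusted p of 0.515. The exact permutation p on log2 CPM was 0.0857. Ciita was thus lower in value while the 7 other members were higher in value in that comparison, with neither side past the test.

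The median log2 fold change of the 8 members against BCP alone was 0.16 with MSC, 0.30 with RvE1-primed MSC and 0.22 with MSC and Treg. These medians share the BCP samples. With 1 sample left out these medians ran from -0.04 to 0.36, from 0.08 to 0.59 and from -0.01 to 0.51, each lowest without BCP replicate 4. They were highest without BCP+MSC replicate 2, BCP replicate 3 and BCP+MSC+Treg replicate 4, respectively. Against BCP+MSC it was 0.15 with RvE1 priming and 0.10 with Treg coculture, which share the BCP+MSC samples, and -0.07 for BCP+MSC+Treg against BCP+MSC+RvE1. In each of the 6 comparisons 0 of the 8 members, and 0.0% of all genes tested, passed an adjusted p of 0.05 with edgeR. No member reached an unadjusted p of 0.05 either. Of all genes, 5.06% did with MSC, 15.6% with RvE1-primed MSC and 7.6% with MSC and Treg against BCP. Against BCP+MSC the share was 3.26% with RvE1 priming and 2.72% with Treg coculture, and it was 2.37% between those 2 groups. DESeq2 called 0 to 99 genes in these comparisons and 0 members. At 4 samples a group, with SEs of 0.36 to 0.64 on the log2 scale, small differences were not detectable.

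All 8 members were lower in value in (dep)BCP+MSC than in BCP+MSC, the same construct without toxin, but none passed the adjusted test. For the most abundant genes the deficit lay mainly in replicates 1 and 2 of the 4 depleted samples. Cd74 was at 477 CPM in replicate 1, 330.1 in replicate 2, 1200 in column 4 and 2381 in column 5 of (dep)BCP+MSC, and at 1234 to 3516 CPM in BCP+MSC. Replicates 1 and 2 lay well below every BCP+MSC sample, and column 5 lay among them. Column 4, at 1200 CPM, lay just below the lowest BCP+MSC sample, replicate 2 at 1234 CPM. BCP replicate 4, without toxin, had 1185 CPM. The log2 fold change of Cd74 was -1.26 ± 0.46 (SE), with an edgeR p of 0.0122, an adjusted p of 0.127 and an exact permutation p of 0.0571.

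Ciita was at 0.997, 1.40, 12.8 and 13.9 CPM in the same order of (dep)BCP+MSC samples and at 20.9, 23.3, 13.2 and 28.7 CPM in BCP+MSC. Replicates 1 and 2 held 10 and 58 counts of Ciita, and the groups overlapped only through column 5, which lay above the lowest BCP+MSC sample. Its log2 fold change of -1.54 ± 0.57 was the largest of the 8, with an edgeR p of 0.0139 and an adjusted p of 0.135.

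The classical chains followed the same order of samples. H2-Eb1, the beta chain of I-E, was at 153, 115, 326 and 781 CPM in (dep)BCP+MSC and at 945, 399, 944 and 848 CPM in BCP+MSC, a log2 fold change of -1.19 ± 0.47 with an edgeR adjusted p of 0.158. H2-Ab1 was at 191, 134, 390.2 and 982 CPM against 1108, 412, 1049 and 899 CPM, a log2 fold change of -1.03 ± 0.49 with an adjusted p of 0.241. H2-Aa, the alpha chain of I-A, was at 214, 173, 479 and 1002 CPM against 1044, 496, 955 and 1172 CPM, a log2 fold change of -0.97 ± 0.43 with an adjusted p of 0.206. For all 3 chains the first 3 depleted samples lay below every BCP+MSC sample, and column 5 lay among them.

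The DM chains differed less in value than the classical chains. H2-DMa was at 31.6, 36.04, 81.8 and 160.0 CPM in (dep)BCP+MSC and at 61.2 to 170 CPM in BCP+MSC, a log2 fold change of -0.67 ± 0.43 with an edgeR adjusted p of 0.400. H2-DMb1 was at 28.4, 29.1, 66.3 and 111 CPM against 57.2 to 125 CPM, a log2 fold change of -0.74 ± 0.37 with an adjusted p of 0.258. For both, only replicates 1 and 2 lay below the BCP+MSC range. H2-Oa, the DO chain, was at 0, 1.47, 0.917 and 1.57 CPM against 1.07 to 3.55 CPM, a log2 fold change of -1.22 ± 0.65 with an adjusted p of 0.294, and the fold rests in part on the sample with 0 counts.

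In this comparison 0 of the 8 members were called by edgeR, where 3.92% of all genes tested were called. At an unadjusted p of 0.05, 5 members were lower (Cd74, Ciita and the 3 classical chains), beside 10.7% of all genes that were lower at that threshold. The median log2 fold change of the members was -1.11, and that of all genes -0.04. The exact permutation p-values of the 8 members lay between 0.0571 and 0.229, where 4 samples against 4 cannot go below 0.0286. Without (dep)BCP+MSC column 5 the median was -1.77 and 5 members were called among 1672 genes in all, while without replicate 2 it was -0.82 and none was. DESeq2 called Cd74 and Ciita among 2895 genes in all, with adjusted p-values of 0.0456 and 0.0345.

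**Figure D3:**
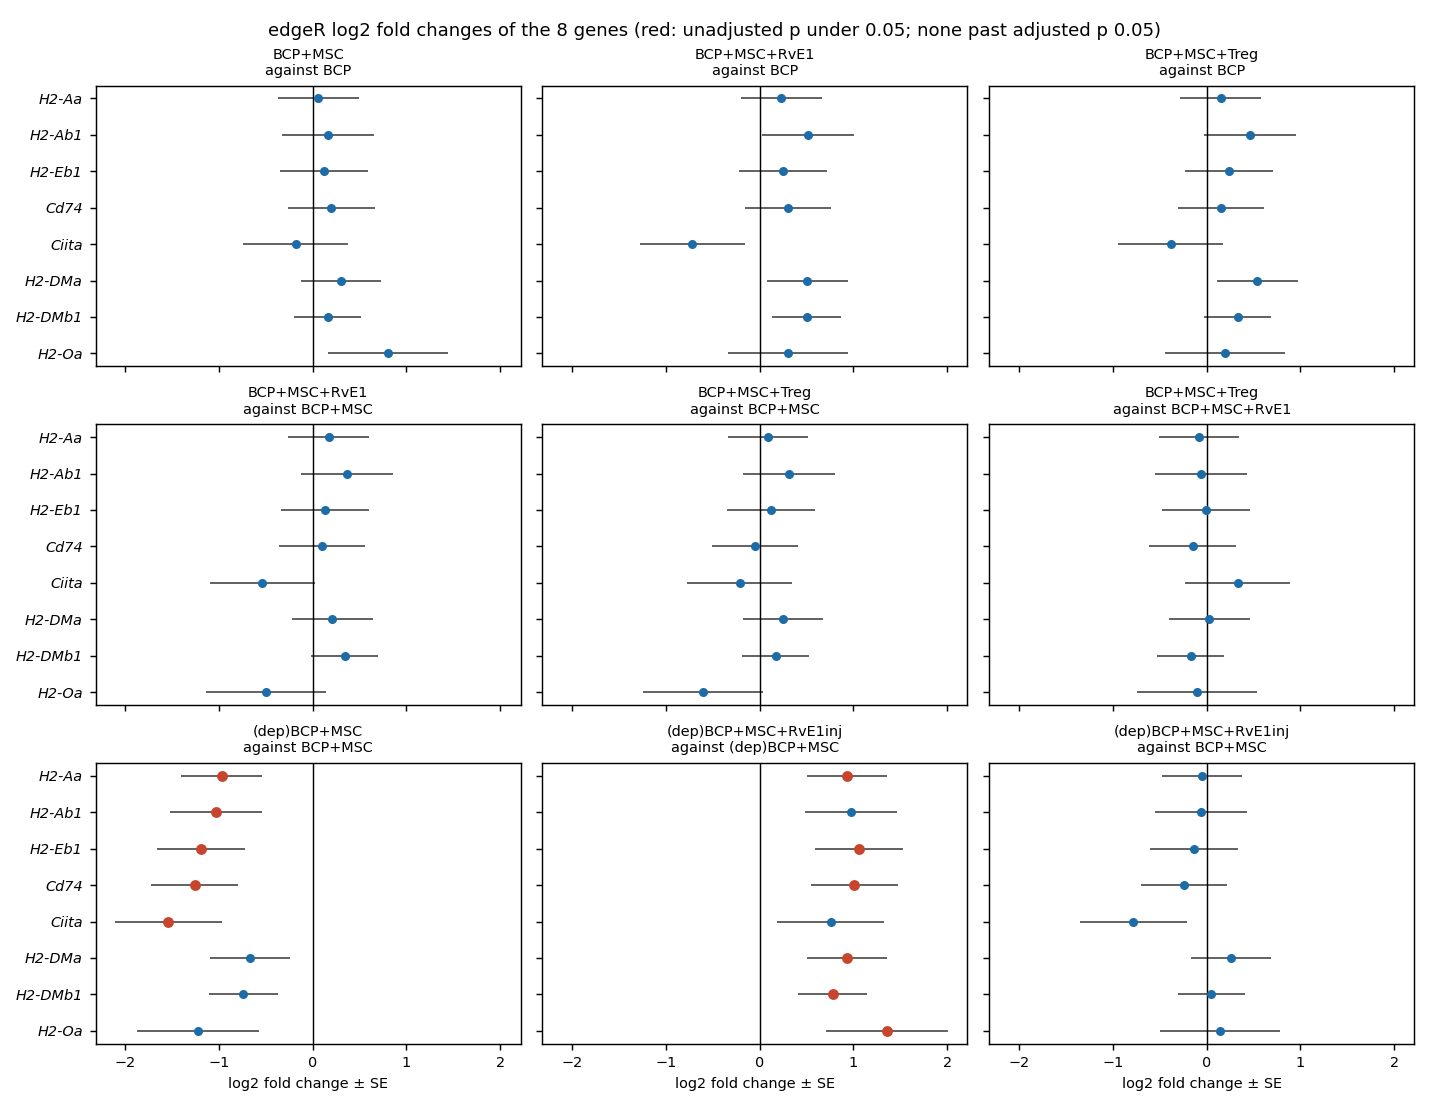
Log2 fold change of each of the 8 genes with its SE in the 9 comparisons; red points have an edgeR p under 0.05 before adjustment and no point passes after it. The members lie below 0 in (dep)BCP+MSC against BCP+MSC and above 0 in (dep)BCP+MSC+RvE1inj against (dep)BCP+MSC.

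All 8 members were higher in value in (dep)BCP+MSC+RvE1inj than in (dep)BCP+MSC, the group with toxin alone, and again none passed the adjusted test. Cd74 was at 2645, 2332, 1656 and 2220 CPM in (dep)BCP+MSC+RvE1inj, H2-Ab1 at 896, 934, 689 and 798 CPM, and H2-DMb1 at 104, 112, 94.2 and 95.7 CPM. These samples lay close together, and for all 3 genes each lay above replicates 1 and 2 and column 4 of (dep)BCP+MSC. Only column 5 was as high, with 2381 CPM of Cd74 and 982 CPM of H2-Ab1. The spread of H2-DMb1 was 8.15 CPM (SD, n = 4) in the injected group and 39.3 CPM in (dep)BCP+MSC.

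The log2 fold change of Cd74 was 1.01 ± 0.46 (SE), that of H2-Eb1 1.06 ± 0.47, that of H2-Aa 0.93 ± 0.43 and that of H2-Ab1 0.97 ± 0.49. The DM chains had 0.93 ± 0.43 for H2-DMa and 0.78 ± 0.37 for H2-DMb1, and H2-Oa had 1.36 ± 0.65. Ciita, at 16.7, 15.1, 5.52 and 12.7 CPM in the injected group, had 0.76 ± 0.57. By edgeR 6 members were higher at an unadjusted p of 0.05 (all but H2-Ab1 and Ciita), beside 3.46% of all genes. After adjustment 0 members and 0.0% of all genes were called, with adjusted p-values of the members from 0.668 to 0.726, and DESeq2 called 8 genes and 0 members. The median of the members was 0.95, and it was 1.64 without (dep)BCP+MSC column 5 and 0.68 without its replicate 2. This comparison and the one before it share the (dep)BCP+MSC samples, so the low values of replicates 1 and 2 enter both.

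Markers of other cells moved with this difference as well, and their part in it was not tested. Of 8 B cell genes, 5 were higher in the injected group at an unadjusted edgeR p of 0.05 and 0 were called, with a median log2 fold change of 1.86 and summed levels of 8.28 to 62.1 CPM against 4.83 to 18.7 CPM. Of 8 T cell genes, 2 were higher at that threshold, with a median of 0.84 and summed levels of 100.1 to 129 CPM against 28.7 to 116 CPM. Of 8 skin epithelium genes, 3 were lower at that threshold, with a median of -2.50 and summed levels of 2.30 to 203 CPM against 27.7 to 434 CPM. The dendritic list had a median of 0.37 and the pan-leukocyte list 0.40.

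Against BCP+MSC without toxin, the injected group showed no called member, where 0.72% of all genes were called. The median log2 fold change of the members was -0.06, with 3 higher and 5 lower in value. Ciita had the lowest, -0.78 ± 0.57, with an edgeR adjusted p of 0.570, and H2-DMa the highest, 0.26. No member, and 13.7% of all genes, reached an unadjusted p of 0.05, and DESeq2 called 0 of them. The SEs of 0.36 to 0.64 mean that a difference of the size seen in (dep)BCP+MSC could have been missed for single genes. Over all 6 groups together, 0 of the 8 members varied beyond an adjusted p of 0.05, where 4.75% of all genes did, and Ciita had the lowest p of the 8, 0.0889.

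H2-Ob, the beta chain of DO and partner of H2-Oa, was the one class II gene measured that passed the test. It was at 0.598 and 0.530 CPM in replicates 1 and 2 of (dep)BCP+MSC, at 1.00 CPM in column 4 and at 0.882 CPM in column 5. BCP+MSC had 2.40, 2.58, 4.73 and 3.15 CPM, and the 2 groups did not overlap. The log2 fold change was -2.07 ± 0.41 (SE), with an edgeR adjusted p of 0.00466, and the exact permutation p of 0.0286 is the smallest that 4 against 4 allows. In column 5 H2-Ob lay below every BCP+MSC sample, whereas each of the 8 members lay within the BCP+MSC range there. Of these, Cd74 (2381 CPM), H2-Eb1 (781 CPM), Ciita (13.9 CPM) and H2-Oa (1.57 CPM) were above only the lowest BCP+MSC sample. The injected group had H2-Ob at 5.26, 1.31, 1.34 and 3.79 CPM, all above the (dep)BCP+MSC samples, with a log2 fold change of 1.94 ± 0.41 and an edgeR adjusted p of 0.668. DESeq2 called this difference, with an adjusted p of 0.00945, as did edgeR on the samples with a replicate number alone (0.0261), and the other 15 of 17 alternatives did not. Replicate 1 of (dep)BCP+MSC held 6 counts of H2-Ob.

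Among the other class II genes, H2-DMb2, the copy of H2-DMb1, had a log2 fold change of -0.79 in (dep)BCP+MSC against BCP+MSC, with an edgeR adjusted p of 0.374. H2-Eb2 had -1.48, with an adjusted p of 0.165, and held 0 and 7 counts in replicates 1 and 2 of (dep)BCP+MSC. H2-Ea-ps, the unprocessed pseudogene of the I-E alpha chain, was near 0 counts, as were H2-Pa and H2-Pb with 0 to 5 counts a sample, and no fold is given. The RNA levels of H2-Eb1 therefore do not show that an I-E molecule was formed. The 12 genes listed for class II transcription held 0 called genes in this comparison and a median of -0.06. Rfx5 and Rfxap, subunits of the RFX complex, both had -0.06, and Rfxank, another subunit, had -0.45 ± 0.23. The NF-Y subunits Nfya and Nfyb had -0.67 ± 0.30 and 0.53 ± 0.17, with opposite signs and neither called. Irf8 had -0.01 and Spi1 -0.25, both factors of myeloid cells. The 8 genes of endolysosomal antigen processing, among them cathepsins, held 0 called genes and a median of -0.12. By edgeR at an unadjusted p of 0.05 these lists held 1 gene higher and 1 lower, and 1 lower, respectively.

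Markers of other cells moved in the same comparison, and their part in the level of the class II genes was not tested. Of 10 genes listed for dendritic cells, which carry the highest class II levels, 4 were lower and 1 higher in (dep)BCP+MSC than in BCP+MSC, with a median log2 fold change of -1.33. Ccr7, the receptor that takes mature dendritic cells to lymph nodes, fell by 2.04 ± 0.36 (SE) on the log2 scale with an edgeR adjusted p of 0.0019. Flt3, a growth factor receptor of dendritic cells, fell by 1.84 ± 0.39, and Clec10a, a lectin also found on macrophages, rose by 1.61 ± 0.39. The summed level of the list was 612 to 1156 CPM in (dep)BCP+MSC and 859 to 1583 CPM in BCP+MSC, and none of its genes was at 0 counts throughout a group. Its mean log2 CPM was 1.60 and 2.07 in replicates 1 and 2 of (dep)BCP+MSC and 3.07 and 3.39 in columns 4 and 5.

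**Figure D4:**
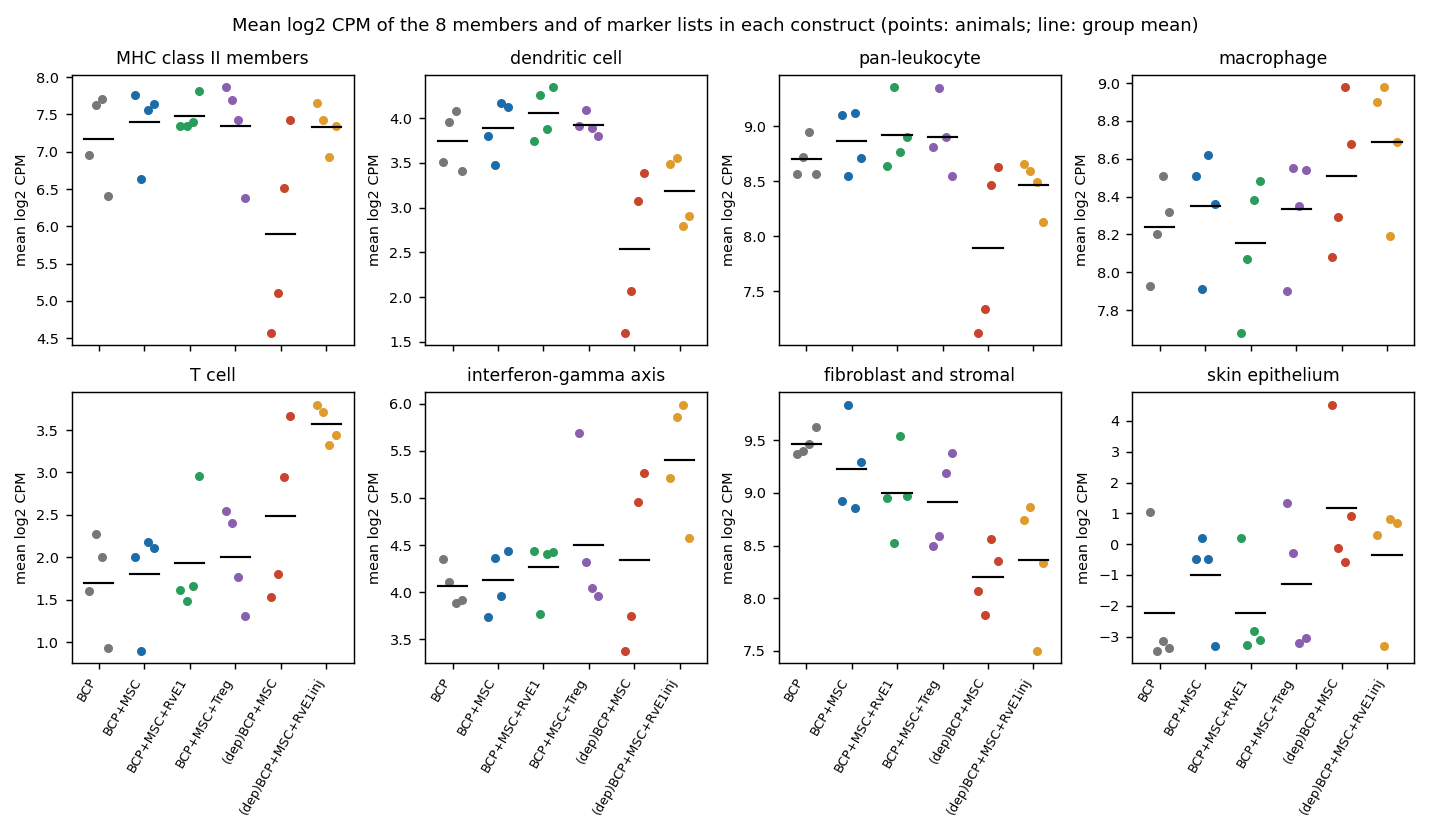
Mean log2 CPM of the 8 class II genes and of 7 marker lists in each sample by group; points are samples and lines are group means (n = 4). The dendritic and pan-leukocyte lists are lowest in (dep)BCP+MSC replicates 1 and 2, the samples with the lowest class II levels, and the macrophage list is not.

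Pan-leukocyte genes, such as Ptprc, were also lower in value in (dep)BCP+MSC, with 4 of 5 at an unadjusted edgeR p of 0.05, 0 called and a median of -0.84. Their summed level was 1071 to 2437 CPM in (dep)BCP+MSC and 2432 to 3670 CPM in BCP+MSC. The 10 macrophage genes had a median of -0.18 and 1 called gene, Mertk, which was higher, and their summed levels overlapped (3717 to 6925 CPM against 3652 to 7628 CPM). Over the 24 samples the mean of the 8 class II genes had a Pearson correlation of 0.85 with the dendritic list, 0.86 with the pan-leukocyte list and 0.18 with the macrophage list. These samples share groups, and without (dep)BCP+MSC replicates 1 and 2 the values were 0.55, 0.52 and 0.05. Other lists came as close. The class II transcription list had 0.81, and 0.60 without the 2 samples, the highest of all lists there. In the same order the costimulation list had 0.78 and 0.24, the neutrophil list 0.74 and 0.53, and the skeletal muscle list 0.19 and 0.59. After the group means were taken out the T cell list had 0.92, the dendritic list 0.86, and the pan-leukocyte and class II transcription lists 0.80. The neutrophil list had 0.77, the costimulation list 0.72 and the macrophage list 0.47. B cell genes, 8 in the list, had a median of -0.92 with 0 called, and summed to 4.83 to 18.7 CPM in (dep)BCP+MSC against 6.55 to 36.3 CPM.

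Skin and stromal genes differed too. Of 8 skin epithelium genes 3 were higher in (dep)BCP+MSC than in BCP+MSC (Lor, Krt1 and Krt10), and their summed level was 27.7 to 434 CPM against 2.46 to 59.5 CPM, highest in replicate 1. With the skin score as a covariate, a fit chosen after seeing the data, the median log2 fold change of the 8 class II genes was -1.05, with -1.33 for Ciita and -1.17 for Cd74. Of 7 fibroblast and stromal genes 4 were lower, among them Thy1, Col1a2 and Pdgfrb, with 3708 to 8975 CPM against 11150 to 22050 CPM. Of 5 genes listed for lymph node stroma 1 was higher, Cxcl13, a chemokine that draws B cells, by 3.98 ± 0.89 (SE) on the log2 scale with an edgeR adjusted p of 0.0158. The summed level of that list did not overlap (35.5 to 103 CPM against 0.534 to 11.4 CPM), and Ccl19 and Ccl21a were at 0 counts in all (dep)BCP+MSC samples. The T cell list had a median of 0.90 with 28.7 to 116 CPM against 19.5 to 46.6 CPM, and the neutrophil list -0.51 with 84.4 to 499 CPM against 265 to 399 CPM, neither with a called gene. The part of the stromal, lymph node, T cell and neutrophil lists in the class II values was not tested.

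Outside the lists, the genes whose pattern over the 24 samples was most like the mean log2 CPM of the 8 members were found among 13246 protein-coding genes. They were Bcl2a1d (Pearson r of 0.93), Erg28, Kctd12, Pepd, Smim24, Plbd1, Galk2, Bcl2a1a, B3galt6 and Scimp (0.91). Within groups their r was 0.86 to 0.94, and without (dep)BCP+MSC replicates 1 and 2 it was 0.65 to 0.82 over 22 samples. Bcl2a1d and Bcl2a1a belong to a family of near-identical copies, and their counts are uncertain.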

How the data were processed

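The authors sequenced stranded mRNA libraries of 24 constructs as paired ends, aligned them with HISAT2 2.0.5 and counted pairs on exons with featureCounts 1.5.2 and GENCODE M13 on GRCm38. The deposited values are raw counts per gene, from a command that set nothing for strand, multimapping or overlaps. Groups came from the labels, which call the samples biological replicates. The 8 members and all gene lists were chosen with earlier results of these data known. All members were named, with up to 3 called genes per list, every other class II gene and the 10 most alike genes. Factors and markers named beyond this were chosen after their values were seen.

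Counts were tested with edgeR 4.0.16 (R 4.3.3): TMM scaling, robust quasi-likelihood fit of all 6 groups, at least 10 counts in all (30564 of 39183 genes with any count), Benjamini-Hochberg adjustment over all genes, threshold 0.05. Exact two-sided permutation tests used log2 CPM with a prior count of 2 and 70 arrangements. Floors of 3 counts cover counting error only, while SDs and SEs include the spread between samples. Alternatives were RLE scaling, 2 other filters, a replicate block, library size or skin score as covariates, the compared groups alone, DESeq2 1.42.0, and each sample left out. The fit was tested on simulated data. Same-numbered samples did not deviate together (10 of 50 pairs with a correlation over 0.1, median 0.00385). No pair of libraries agreed within sampling noise.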

Additional observations from a re-analysis of the deposited data

Results flagged for a closer look

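Dixon's test of the highest and lowest sample was run on 54 groups of 4 samples, for the members and their sums, and marks about 1 in 20 groups by chance. It marked 3 values. H2-Eb1 was lowest in BCP+MSC replicate 2, at 399 CPM against 848 to 945 CPM in the other 3 samples, with a gap of 0.875 of the range. The summed level of the 8 members was lowest in the same sample, at 2684 CPM, with a gap of 0.843 of the range. H2-Oa was lowest in (dep)BCP+MSC replicate 1, with 0 counts and a gap of 0.862 of the range on the CPM scale, where a count of 0 allows up to 0.354 CPM before TMM scaling in this shallowest library.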

How the results depend on the processing

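For the members, RLE scaling, both other filters, the covariates and the fit of the compared groups alone left 0 calls in every comparison. In (dep)BCP+MSC against BCP+MSC, DESeq2 called 2 members, the replicate block 7 and the samples with a replicate number alone 7, with medians of -2.43 under the block and -2.31 without it on the same samples, and leaving out 1 sample gave 0 to 5 calls and medians of -1.77 to -0.82. In (dep)BCP+MSC+RvE1inj against (dep)BCP+MSC, both of those fits called 7, with medians of 2.40 and 2.28, and leaving out 1 sample gave 0 calls and medians of 0.68 to 1.64. For any difference among the groups the block gave 6 and the numbered samples alone 7. Both fits drop columns 4 and 5, which leaves the 2 low samples as the whole (dep)BCP+MSC group, and the fit of numbered samples without a block was added after seeing the data. Only 6 of 22 samples correlated best with their own number, so the numbers do not pair the samples. H2-DMb1 in BCP+MSC+Treg against BCP+MSC+RvE1 was -0.17, and -0.33 to 0.03 with 1 sample left out (0.03 without BCP+MSC+Treg replicate 4), and the medians of 5 undepleted comparisons and of (dep)BCP+MSC+RvE1inj against BCP+MSC, none with a call, changed sign when 1 sample was left out.

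All genes called in (dep)BCP+MSC against BCP+MSC numbered 1198, with 2895 by DESeq2, 2443 under the block, 3245 in the numbered samples, 701 with the skin covariate, 157 in the compared groups alone and 467 (without replicate 1 of (dep)BCP+MSC) to 1672 (without column 5). In (dep)BCP+MSC+RvE1inj against BCP+MSC they numbered 220, with 1112 by DESeq2, 353 in the numbered samples, 40 in the compared groups alone and 45 to 213 with 1 left out. In (dep)BCP+MSC+RvE1inj against (dep)BCP+MSC they numbered 0, with 8, 347 and 695 by DESeq2, block and numbered samples. For any difference they numbered 1452, with 3961 by DESeq2, 2486 in the numbered samples, 610 with the skin covariate and 875 to 1622 with 1 left out. H2-Ob kept its call in (dep)BCP+MSC against BCP+MSC in 16 of 17 alternatives. The exception was the compared groups alone, with an edgeR adjusted p of 0.0581. In the shallowest library, counts near the floor limit Ciita, H2-Oa, H2-Ob and H2-Eb2.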

Other observations

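Class I presentation and the interferon-gamma axis, which can induce both classes, were measured beside the class II genes in (dep)BCP+MSC against BCP+MSC. The 10 class I genes held 0 called genes by edgeR, none at an unadjusted p of 0.05, with a median log2 fold change of -0.16. The 12 genes of the interferon-gamma axis had a median of 0.52, with 0 called, 3 higher and 1 lower at an unadjusted p of 0.05. Whether these medians differ from that of the class II genes was not tested. In (dep)BCP+MSC+RvE1inj against (dep)BCP+MSC, 6 of the 10 class I genes and 7 of the 12 interferon-gamma genes were higher at an unadjusted edgeR p of 0.05, with medians of 0.82 and 0.95 and 0 called. Against BCP+MSC the injected group was higher in the interferon-induced GTPase genes Gbp4, by 2.04 ± 0.40 (SE) on the log2 scale with an edgeR adjusted p of 0.0156, and Igtp, by 2.48 ± 0.57 with an adjusted p of 0.0466.

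T cell genes, in a list that covers CD4 and CD8 T cells together, were also higher in the injected group than in BCP+MSC. Of 8 listed genes 3 were called higher (Cd4, Cd8b1 and Lck), with a median of 1.62 and summed levels of 100.1 to 129 CPM against 19.5 to 46.6 CPM. Of 7 costimulation genes 1 was called in (dep)BCP+MSC against BCP+MSC, Cd83, a marker of mature dendritic cells, which fell by 1.64 ± 0.42 with an adjusted p of 0.0305.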
